A study of Mus musculus with 8 samples.

Results

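The lungs of C3H/HeOuJ and C3H/HeJ mice, closely related inbred substrains, were compared after both had breathed filtered air only, so the comparison gives the difference between the substrains without ozone. The members were 4 of the 8 arrays of the series: 2 arrays whose titles name HeOuJ air and 2 whose titles name HeJ air, read over all 12422 probe sets that are not controls. The other 4 arrays hold the same substrains after ozone and share no array with the air groups. Whole lung was frozen in liquid nitrogen and its RNA was read on oligonucleotide arrays, on which a probe set is a group of short probes for 1 transcript. The labels give 72 h of exposure for HeOuJ and no time for HeJ, and they give neither sex, age nor ozone concentration. The replicates of a group are called 1a and 1b, and the labels tie neither to an animal of its own; the p-values therefore speak of the spread between the arrays at hand, possibly a technical one. Because the tissue was whole lung, fewer cells of a type and less RNA per cell cannot be told apart.

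As background, the substrains were separated from a common C3H stock. HeJ mice carry a missense mutation in Tlr4, the receptor for bacterial endotoxin, and respond poorly to it, while HeOuJ mice have the working receptor. Heat shock proteins, among the genes described first, are chaperones that fold or refold other proteins; Hspa1a and Hspa1b encode the inducible form of Hsp70, whose transcription the factor Hsf1 drives through paired and tripled inverted repeats called heat shock elements.

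Defining markers of lung tissue were among the brightest probe sets on the air arrays. Sftpc, the surfactant protein of alveolar type 2 cells, read 56980 and 45720 on the HeJ air arrays and 55300 and 39540 on the HeOuJ air arrays, and Scgb1a1, the secretoglobin of airway club cells, read 62460 and 47890 against 54110 and 40170. The substrains overlapped for both genes. Median intensities of the 8 arrays lay between 351 and 386. The rank correlation of the replicates was 0.959 in HeJ air and 0.956 in HeOuJ air. The actin control intensity at the 5' end divided by that at the 3' end measures how complete the labelled RNA was. It came to 0.498 and 0.432 in HeJ air and 0.598 and 0.603 in HeOuJ air, and the groups did not overlap. The same ratio of the Gapdh control was 0.897 and 0.775 in HeJ air and 1.06 and 0.853 in HeOuJ air, and there the groups overlapped. The part of the actin ratio in the results was not tested beyond a fit with it as a covariate. The slope of that fit comes only from differences within groups, which were smaller in HeJ ozone (0.505 and 0.53) and HeOuJ ozone (0.766 and 0.756). It thus rests mainly on the 2 HeJ air arrays, and cannot separate the ratio from other differences between them.

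Between the substrains in air, 5 of 10953 probe sets tested passed an adjusted p of 0.05 in limma, or 0.0456%. In HeOuJ, 3 were higher (0.0274% of those tested) and 2 lower (0.0183%). The 3 higher ones were Hspa1a, Hspa1b and a probe set with no single gene name, and the 2 lower ones were Ppp1r21 and 1 probe set of Ighm, the heavy chain of IgM. At an unadjusted p under 0.05 there were 625 probe sets (5.71%), where 5% of those tested would be 548, 342 of them higher (3.12%) and 283 lower (2.58%). The arrays of the substrains did not overlap for 3577 probe sets (32.7%), where 33.3% would be expected by chance with 2 arrays against 2. The median standard error of a log2 difference was 0.30, so the number of arrays limits what could pass. Every count of calls rests on all 8 arrays: without any 1 of the 8 no probe set passed, and the smallest adjusted p in limma then lay between 0.0523 and 0.208. None passed either with the 4 air arrays alone (smallest adjusted p 0.566 in limma) or with the actin ratio as a covariate (1).

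Hspa1b was brighter on both HeOuJ air arrays than on any other array of the series. It read 435 and 439 in HeJ air and 2249 and 1941 in HeOuJ air, and in ozone it read 399 and 466 in HeJ and 805 and 724 in HeOuJ. The intensity rose 4.78-fold in HeOuJ air over HeJ air, a log2 difference of 2.26 (SE 0.19, adjusted p 0.00551 in limma). In ozone the HeOuJ arrays were again above the HeJ arrays, with a log2 difference of 0.83 that did not pass (adjusted p 0.0823 in limma).

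Hspa1a, the neighbouring copy, read 316 and 472 in HeJ air and 1961 and 2095 in HeOuJ air. In ozone it read 597 and 462 in HeJ and 424 and 485 in HeOuJ, and there the substrains overlapped. The HeOuJ air arrays were 5.24-fold above HeJ air, a log2 difference of 2.39 (SE 0.26, adjusted p 0.0249 in limma), while the log2 difference in ozone was -0.21. With the actin ratio as a covariate the air difference was 3.55. The test of whether the substrain difference itself differed between air and ozone did not pass for either copy, with adjusted p 0.115 for Hspa1a and 0.157 for Hspa1b in limma.

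Hspa1a and Hspa1b lie side by side on chromosome 17 with 0 genes between them in the RefSeq table of GRCm38.p6. Their promoters are shown because both copies were among the 5 calls. In the 250 bases before the start of transcription 247 are identical, or 98.8%, and each holds 1 pair of inverted heat shock repeats, GAANNTTC, printed in capitals and ending 96 bases before the start. The stretches are chr17:34972157-34972406 for Hspa1a and chr17:34959239-34959488 for Hspa1b, both on the minus strand, RefSeq, GRCm38.p6, 5' to 3'.
Hspa1a: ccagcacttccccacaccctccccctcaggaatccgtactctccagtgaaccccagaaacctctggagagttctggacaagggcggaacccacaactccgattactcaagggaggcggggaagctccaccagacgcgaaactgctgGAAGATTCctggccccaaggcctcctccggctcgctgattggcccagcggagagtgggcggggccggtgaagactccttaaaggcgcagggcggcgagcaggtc
Hspa1b: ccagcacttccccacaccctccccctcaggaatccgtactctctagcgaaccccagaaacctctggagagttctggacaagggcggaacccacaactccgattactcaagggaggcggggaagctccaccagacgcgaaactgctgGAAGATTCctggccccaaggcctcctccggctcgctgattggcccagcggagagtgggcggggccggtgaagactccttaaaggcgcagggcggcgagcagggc
Whether the probes of one copy also read the other was not tested.

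The full heat shock element of 3 alternating repeats, in which GAANNTTC and TTCNNGAA overlap, was searched first. No exact match was found in either window of 300 bases, which spans 250 bases before to 50 after the start. Repeats with a changed letter were not counted. Just before the printed pair both sequences hold gaa and then tgc, where an exact alternating element would have ttc. The pair GAANNTTC, which every element of 3 repeats contains, was searched afterwards. Each motif reads the same on both strands or was searched with its complement. The pair was present in 7.86% of all 32851 RefSeq windows, that is for 9.04% of the 27025 genes with a window, and in 13 of the 38 chaperone genes with a window, or 34.2%, and 9 genes of that list had no window. The element of 3 repeats was present for 0.662% of genes (0.603% of windows) and in 5 of the 38 chaperone genes, among them Hsph1, Hspd1 and Hspe1. The pair turned outward, TTCNNGAA, was present for 9.6% of genes (8.52% of windows) and in 9 of the 38. A match describes letters in a window and is neither a site of binding nor a cause.

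Among 47 chaperone genes tested, most lay higher in HeOuJ air by small amounts. Of the 47, 36 were higher and 11 lower, with a median log2 difference of 0.27 and a range from -0.22 to 2.39; over all 7629 named genes, with 1 probe set each, 49.9% were higher and the median was 0.00, and of all probe sets tested 51.5% were higher and 48.4% lower. Hspa1a and Hspa1b passed the adjusted threshold, and 13 genes, or 27.7%, were higher and 0 lower at an unadjusted p under 0.05, where 3.12% of all probe sets tested were higher. In ozone 30 of the 47 were higher (52.3% of all probe sets tested), with a median of 0.18. With the actin ratio as a covariate 26 of the 47 were higher, the median was 0.10 and 6 were higher at an unadjusted p under 0.05. The slope of that fit rests mainly on the 2 HeJ air arrays. Leaving out 1 air array gave medians from 0.17 to 0.38, the lowest without HeJ air 1b and without HeOuJ air 1a.

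Hsph1, the Hsp110 partner that exchanges nucleotide on Hsp70, had the smallest p of the chaperones after the Hsp70 pair. It read 920 and 895 in HeJ air and 1839 and 1837 in HeOuJ air, and 956 and 1212 against 1204 and 1619 in ozone. The air groups were apart, and in ozone they were close together, with 1 HeOuJ array below 1 HeJ array. The log2 difference was 1.02 (SE 0.19) in air with an adjusted p of 0.246 in limma, so it did not pass. Dnajb1, the Hsp40 that hands clients to Hsp70, read 650 and 680 in HeJ air and 1170 and 1019 in HeOuJ air. It lay apart in ozone too, at 668 and 753 against 1066 and 1040, with log2 differences of 0.72 (SE 0.17) in air and 0.57 in ozone, neither of which passed.

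The other chaperones named here at an unadjusted p under 0.05 differed in what they did in ozone. Hspa8, the constitutive Hsp70, had log2 differences of 0.51 (SE 0.19) in air and 0.39 in ozone, and Hsp90aa1, the inducible Hsp90, had 0.49 (SE 0.17) and -0.76. Chosen after their values were seen, the Hsp110 relative Hspa4 had 0.66 (SE 0.19) in air and -0.47 in ozone, the Hsp40 Dnaja1 0.71 (SE 0.19) and -0.25, the Hsp70 cofactor St13 0.52 (SE 0.19) and 0.81, and Cdc37, which brings kinases to Hsp90, 0.39 (SE 0.14) and 0.60. Cct4, a subunit of the chaperonin that folds actin and tubulin, had 0.47 (SE 0.19) in air and 0.03 in ozone. None of these passed, and no interaction between substrain and exposure passed for any probe set. With the actin ratio as a covariate the air differences were 1.55 for Hspa4, 1.38 for Dnaja1, 1.14 for Hsp90aa1 and 0.04 for Cct4, and Cct4 had 0.21 without HeOuJ air 1a. The further probe sets of Hspa4 had -0.11, 0.52, 0.27 and -0.03 in air. Hspa1l, a testis Hsp70 beside Hspa1a, had 1.56 (SE 0.70) in air and -0.41 in ozone; its air difference was 0.73 without HeJ air 1b, 2.38 without HeJ air 1a and -0.01 with the covariate. Hspa9, the mitochondrial Hsp70, was among the lowest of the list at -0.22 (SE 0.14).

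**Figure D1:**
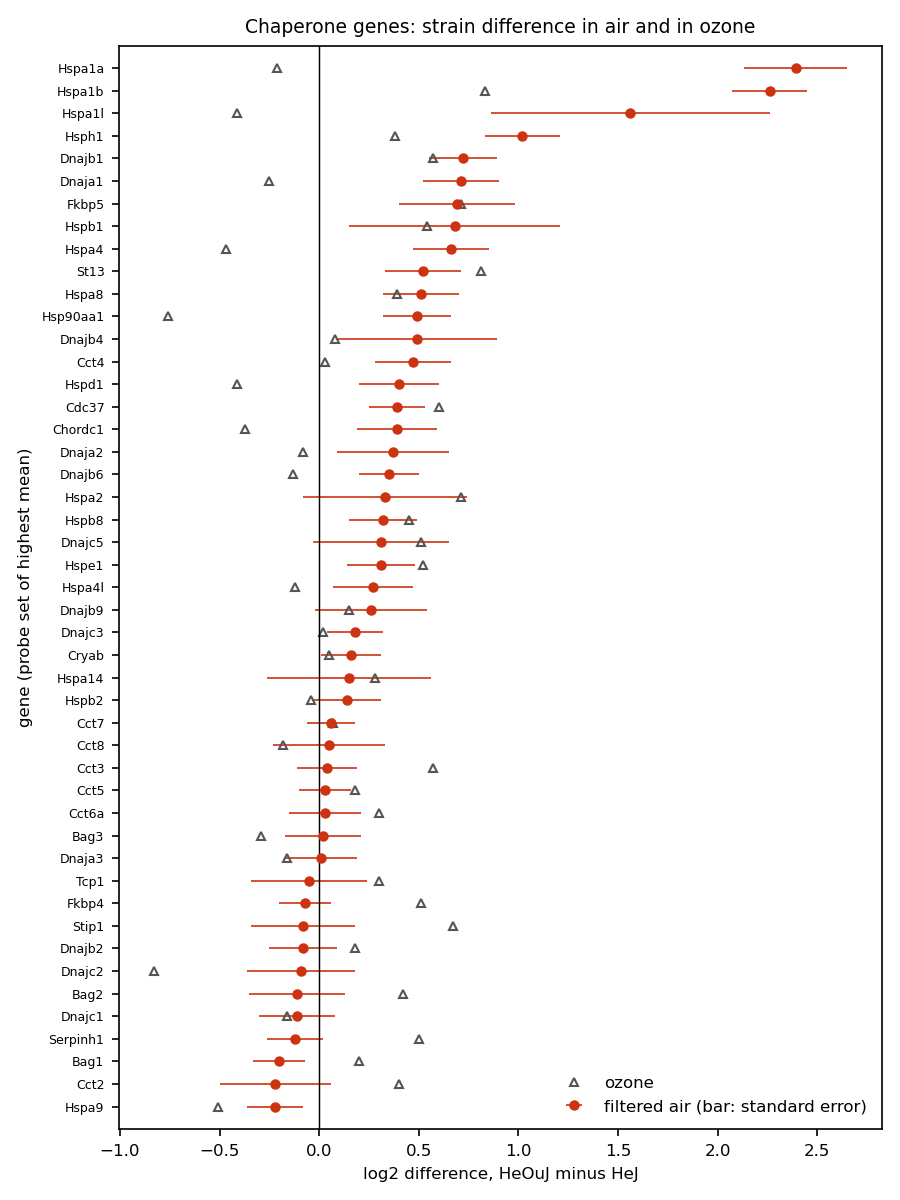
Log2 difference of HeOuJ minus HeJ for each of 47 chaperone genes, 1 probe set per gene: circles with standard error bars for filtered air and open triangles for ozone. Hspa1a and Hspa1b stand apart in air at 2.39 and 2.26, 36 of the 47 circles lie to the right of 0, and the Hspa1a triangle lies at -0.21.

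Genes of the endoplasmic reticulum stress list, which serve protein folding in the secretory pathway, had a median log2 difference of 0.14, with 17 of 22 higher and none past the adjusted threshold. Hspa5, the Hsp70 of that compartment, had 0.47 (SE 0.15) in air and 0.50 in ozone. With the actin ratio as a covariate the median of this list turned to -0.09. The 26 genes of the glucocorticoid response, induced by the steroid receptor, had a median of 0.15, with 20 higher, none past the adjusted threshold and 5, or 19.2%, higher at an unadjusted p under 0.05 (3.12% of all probe sets). Errfi1, which restrains the EGF receptor, had 0.52 (SE 0.11), Hsd11b1, which regenerates active glucocorticoid, 0.71 (SE 0.16), and Per1, a clock gene that the receptor also induces, 0.86 (SE 0.32). In ozone 20 of the 26 were higher, with a median of 0.37.

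Ppp1r21, which encodes a subunit of an endosomal complex that carries mRNA, was lower in HeOuJ by almost the same amount in both exposures. It read 6784 and 6373 in HeJ air and 2335 and 2466 in HeOuJ air, and 6199 and 5710 against 2203 and 1991 in ozone. All 4 HeOuJ arrays lay below all 4 HeJ arrays. It was 2.74-fold lower in HeOuJ air, a log2 difference of -1.45 (SE 0.12, adjusted p 0.00551 in limma). In the ozone arrays, which enter the air test only through the shared estimate of spread and not through its difference, the difference was -1.51 (adjusted p 0.00895 in limma), and the difference between the exposures was far from passing (adjusted p 0.948 in limma).

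Cystm1, a small membrane protein rich in cysteine, and Skap2, an adaptor of integrin signalling in myeloid cells, came next among the lower probe sets and lay just outside the threshold. Cystm1 read 4423 and 3186 in HeJ air and 1451 and 1052 in HeOuJ air, and 3703 and 3692 against 1718 and 1512 in ozone. The HeOuJ arrays lay below the HeJ arrays in both exposures, with log2 differences of -1.60 (SE 0.20, adjusted p 0.0536 in limma) in air and -1.20 (adjusted p 0.0479 in limma) in ozone. Skap2 read 8110 and 7046 against 2917 and 2638 in air, and 5937 and 5360 against 3518 and 2339 in ozone. It too was lower on every HeOuJ array, with log2 differences of -1.45 (SE 0.19, adjusted p 0.0691 in limma) in air and -0.98 (adjusted p 0.056 in limma) in ozone.

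Ighm, read by the probe set 93583_s_at, whose suffix marks probes shared by several transcripts, was lower in HeOuJ in air. It read 7235 and 7226 in HeJ air and 2502 and 2561 in HeOuJ air, whereas in ozone HeJ read 3609 and 3482 and HeOuJ 3434 and 4045. The HeJ air arrays stood above the other 6, and in ozone the substrains overlapped. In air the probe set was 2.86-fold lower in HeOuJ, a log2 difference of -1.51 (SE 0.13, adjusted p 0.00551 in limma), against 0.07 in ozone. The test of air against ozone gave an adjusted p of 0.0509 in limma, the smallest of all 10953 probe sets and just outside the threshold. No probe set passed this test in limma (0%), and 1252 (11.4%) had an unadjusted p under 0.05. With quantile normalisation it passed for 3 probe sets.

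The probe sets of Ighm did not move as one. Of 13 that were tested, 7 were higher and 6 lower in HeOuJ air, with a median log2 difference of 0.09. The second brightest, 99420_at, ran the other way: it read 1610 and 1011 in HeJ air and 3244 and 2472 in HeOuJ air, a log2 difference of 1.15 (SE 0.23, adjusted p 0.301 in limma), and 545 and 639 against 2844 and 3062 in ozone, a log2 difference of 2.32 (adjusted p 0.0127 in limma). The next brightest, 93584_at, had -0.38 (SE 0.25). With the actin ratio as a covariate the air differences of these 2 were -0.01 and 0.42. Immunoglobulin probe sets read rearranged variable genes and shared constant parts, so a single one does not measure the amount of IgM RNA. Over all 61 immunoglobulin probe sets tested, 31 were higher and 30 lower, with a median of 0.01 in air and 0.50 in ozone, and 7 were higher (11.5%) and 4 lower (6.56%) at an unadjusted p under 0.05, against 3.12% and 2.58% of all probe sets. Igha, the heavy chain of the mucosal antibody IgA, read by 100583_at, had 0.55 (SE 0.17) in air and 1.37 (adjusted p 0.0251 in limma) in ozone.

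Markers of B cells were mostly lower in HeOuJ air, beside the lower Ighm reading. Of 20 genes tested, 16 were lower and 4 higher, where 48.4% of all probe sets tested were lower. The median log2 difference was -0.33 in air and -0.03 in ozone. None passed, and 1 gene, or 5%, was lower at an unadjusted p under 0.05 (2.58% of all probe sets). This was Ltb, a lymphotoxin subunit, at -0.93 (SE 0.38), or -0.34 with the actin ratio as a covariate, and Cd79b, a signalling chain of the B cell receptor, had -0.42 (SE 0.22). The median rested on HeOuJ air 1a: without that array it was -0.06. The summed intensity of the list was 37060 to 40810 in HeJ air and 31490 to 37710 in HeOuJ air, and these ranges overlap. No member lay at the floor, the lowest intensity kept in the analysis, on all 4 air arrays, and the part of B cell number in the Ighm result was not tested.

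MHC class II genes, which present peptides to helper T cells, were led by H2-Eb1, a beta chain. H2-Eb1 read 5116 and 4570 in HeJ air and 2500 and 2088 in HeOuJ air, and 3643 and 3446 against 2926 and 3478 in ozone. The air groups were apart and the ozone groups overlapped, with log2 differences of -1.08 (SE 0.15, adjusted p 0.071 in limma) in air and -0.15 in ozone. H2-Aa, an alpha chain, had -0.58 (SE 0.14), and the peptide exchange factor H2-DMa, picked after its value was seen, had -0.46 (SE 0.14). Of the 16 genes of the list 11 were lower, with a median of -0.12, none past the adjusted threshold and 3, or 18.8%, lower at an unadjusted p under 0.05 (2.58% of all probe sets). Cxcr4, a homing receptor of lymphocytes, had -0.58 (SE 0.17) in air and -0.66 in ozone.

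Macrophage markers were divided. Of 35 tested, 18 were higher and 17 lower, with a median of 0.02, none past the adjusted threshold, and 8 higher (22.9%) and 3 lower (8.57%) at an unadjusted p under 0.05, against 3.12% and 2.58% of all probe sets. Chil3, the chitinase-like protein of alveolar macrophages, read 3060 and 2738 in HeJ air and 7031 and 4978 in HeOuJ air, and 2062 and 1730 against 2719 and 2459 in ozone. The HeOuJ arrays were above the HeJ arrays in both exposures, with log2 differences of 1.03 (SE 0.18, adjusted p 0.231 in limma) and 0.45. The fatty acid carrier Cd36 had 0.73 (SE 0.24) in air. Against these, C1qa, a chain of the first complement component, had -0.70 (SE 0.18), while C1qb, another chain of that component, had 0.57 (SE 0.24) by its brighter probe set and 0.04 (SE 0.26) by the other; with the actin ratio as a covariate C1qa had -1.34, the dimmer C1qb probe set -0.41 and Cd36 1.43. The summed intensity of the macrophage list was 90620 to 99710 in HeJ air and 97680 to 110800 in HeOuJ air.

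The probe set with the largest called difference, 101566_f_at, has no single gene name in the annotation used, and its suffix marks probes shared by a family of sequences. It read 22 and 8 in HeJ air, under the floor of 69.6, and 437 and 410 in HeOuJ air. In ozone it read 19 and 12 in HeJ and 111 and 140 in HeOuJ, so that it was above the floor on the HeOuJ arrays and on no HeJ array. It was at least 6.08-fold higher in HeOuJ air, measured against the floor, with a fitted log2 difference of 2.60 (SE 0.31, adjusted p 0.049 in limma). Only the HeOuJ arrays brought it past the filter, and the floor left no spread on the HeJ arrays, so its SE and p rest in part on the floor. The fitted value follows the floor: it was 3.82 with the floor at the 10th percentile of intensities and 1.66 at the 30th. A second probe set with no single gene name, 161815_f_at, chosen after its value was seen, lay just outside the threshold. It read 43 and 26 against 551 and 388 in air, and 39 and 80 against 299 and 288 in ozone. Its HeOuJ arrays were higher in both exposures, at least 6.64-fold in air measured against the floor. The fitted log2 differences were 2.73 (SE 0.35, adjusted p 0.0536 in limma) in air and 1.97 (adjusted p 0.0493 in limma) in ozone. Both HeJ air arrays and 1 HeJ ozone array lay under the floor. The SE and p of 161815_f_at therefore rest in part on the floor in both exposures, and its fitted air difference ran from 1.79 to 3.69 over the fits.

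**Figure D2:**
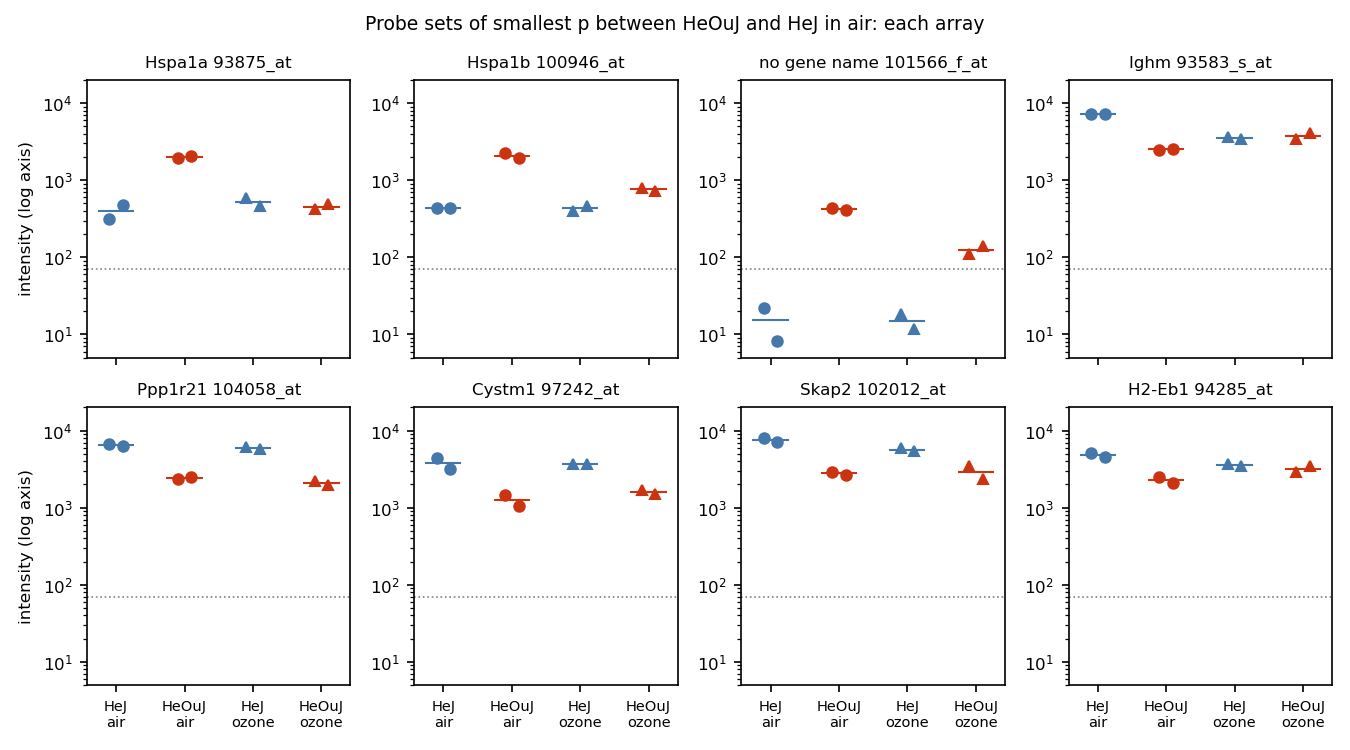
Intensity on a log axis for 8 probe sets of small p between the substrains in air; points are single arrays (circles air, triangles ozone, blue HeJ, red HeOuJ), short lines group means, and the dotted line the floor of 69.6. Ppp1r21, Cystm1 and Skap2 are lower on all HeOuJ arrays, whereas Hspa1a is high on the 2 HeOuJ air arrays and Ighm 93583_s_at on the 2 HeJ air arrays.

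The next higher genes by p after the calls were Lox, Yif1a and Adra2c. Lox, the enzyme that cross-links collagen and elastin, read 551 and 755 in HeJ air and 1834 and 1530 in HeOuJ air, and 692 and 818 against 624 and 726 in ozone. It was apart in air and overlapped in ozone, with log2 differences of 1.38 (SE 0.22, adjusted p 0.169 in limma) and -0.16. Yif1a, a factor of transport from the endoplasmic reticulum to the Golgi, had 1.06 (SE 0.17) in air and -0.08 in ozone. Adra2c, an adrenergic receptor, read 69 and 78 in HeJ air, close to the floor, and 352 and 271 in HeOuJ air, with a log2 difference of 2.07 (SE 0.36, adjusted p 0.231 in limma). In ozone it read 348 and 324 in HeJ and 408 and 290 in HeOuJ, so HeJ air alone was low. The 57 genes of the collagen and matrix list were 26 higher and 31 lower (median -0.05), none past the adjusted threshold.

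Read in the ozone arrays, the 5 calls of the air comparison gave 3 with the same sign, all 3 at an unadjusted p under 0.05, and 1, Ppp1r21, past the adjusted threshold. Of all probe sets tested, 18% had an unadjusted p under 0.05 in ozone, and 9.92% in the same direction as in air. The air and ozone p-values of a probe set share 1 estimate of spread. Selection by a small p in air thus favours a small p in ozone, and the calls cannot be compared directly with these shares. Over all probe sets tested 50.6% had the same sign in both exposures, and across these probe sets, which are not independent replicates, the 2 substrain differences were correlated with Pearson's r of 0.06 and Spearman's rho of 0.05. In ozone 107 probe sets (0.977%) differed between the substrains at an adjusted p of 0.05, of which 58 had the same sign in air. Of the 342 probe sets higher in air at an unadjusted p under 0.05, 175 were higher in ozone, and of the 283 lower ones 150 were lower. The HeOuJ ozone arrays stood apart from the rest, with actin ratios of 0.766 and 0.756 and a replicate rank correlation of 0.935.

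A limit of 0.01 on the unadjusted p in both exposures, set after the values had been seen, was met by 24 probe sets in the same direction, 12 higher and 12 lower in HeOuJ, and by 10 in opposite directions. The 24 are 0.219% of those tested; 150 (1.37%) met the limit in air and 753 (6.87%) in ozone. For all 24 the arrays did not overlap in either exposure, which their selection by p favours. The shared estimate of spread also favours a small p in both exposures at once. They hold Ppp1r21, Hspa1b, Cystm1, Skap2 and Dnajb1, given above, and others named here after their values were seen. Sbds, a ribosome maturation factor, read 2622 and 2681 in HeJ air and 5117 and 3864 in HeOuJ air, with log2 differences of 0.75 (SE 0.15) in air and 0.79 in ozone. Fabp1, a fatty acid carrier, read 227 and 204 against 762 and 551 in air, with 1.59 (SE 0.33) in air and 1.89 (adjusted p 0.0483 in limma) in ozone. A second, dim probe set of Fabp1 had -0.19 (SE 0.42).

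The set further holds Ncf1, Cd302, Cd68, Irf8 and Nmur1. Ncf1, a cytosolic subunit of the phagocyte oxidase, read 162 and 58 in HeJ air and 439 and 381 in HeOuJ air, with 1.94 (SE 0.48) in air, 0.40 with the actin ratio as a covariate, and 2.01 in ozone. Cd302, a lectin receptor of phagocytes, had 0.84 (SE 0.23) and 1.00, and Cd68, a lysosomal protein of macrophages, 0.59 (SE 0.18) and 1.29. Irf8, a transcription factor of monocytes and dendritic cells, had -0.61 (SE 0.16) and -0.63. Nmur1, a neuromedin receptor of nerve and innate lymphoid cells, read 683 and 289 in HeJ air and 159 and 104 in HeOuJ air, with -1.79 (SE 0.47) in air, -3.79 with the covariate, and -1.85 in ozone. None of these 5 passed the adjusted threshold in air.

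The set also holds Eif2s3y, a translation factor encoded on the Y chromosome and so a marker of male tissue. It read 900 and 1075 in HeJ air and 467 and 455 in HeOuJ air, and 1337 and 1183 against 233 and 246 in ozone. Its probe set, marked as shared within a family of sequences, was above the floor on all 8 arrays and lower on every HeOuJ array, with log2 differences of -1.09 (SE 0.21, adjusted p 0.285 in limma) in air and -2.39 (adjusted p 0.00895 in limma) in ozone. Uty, another gene of the Y chromosome, read 249 and 279 in HeJ air and 151 and 212 in HeOuJ air, and 346 and 367 against 142 and 22 in ozone. Kdm5d, also of the Y chromosome, was under the floor on all 4 air arrays and read 97 and 125 in HeJ ozone against 51.1 and 41.1 in HeOuJ ozone. Xist, the RNA of the inactive X chromosome, read 84 and 100 against 16 and 73 in air, and 82.3 and 36.8 against 132 and 160 in ozone. The part of the animals' sex in the substrain difference was not tested.

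**Figure D3:**
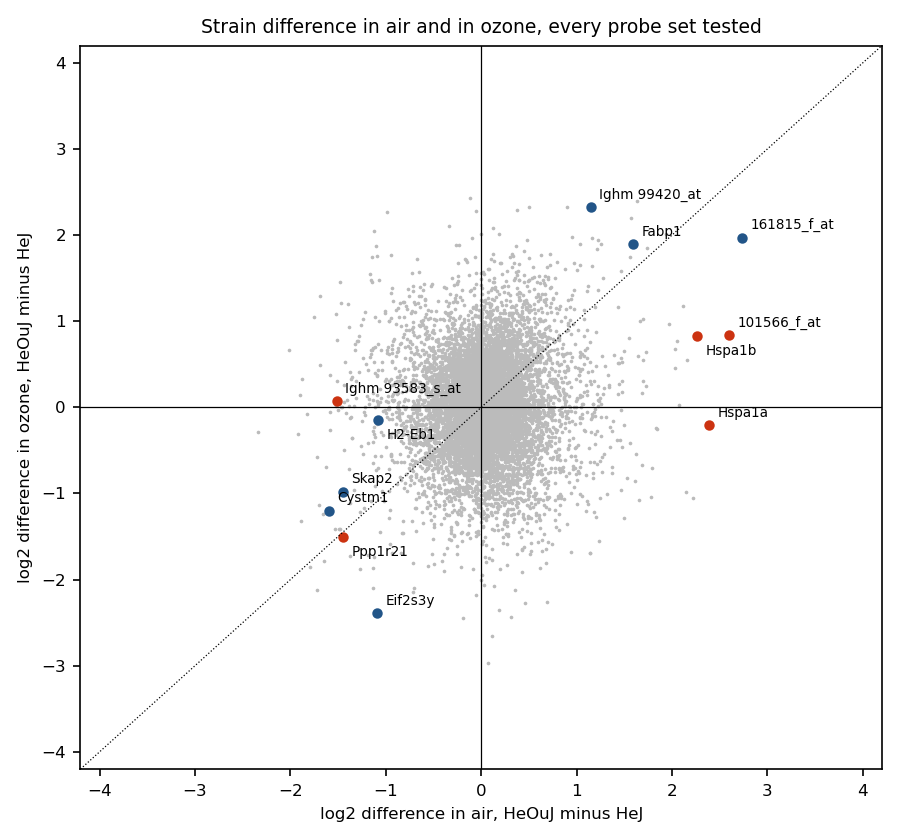
Log2 difference of HeOuJ minus HeJ in air (horizontal) and in ozone (vertical) for each of 10953 probe sets; red points passed in air, blue points are others named in the text, and the dotted diagonal marks equal differences. Ppp1r21 and Cystm1 lie near the diagonal, Hspa1a and Ighm 93583_s_at near the horizontal line of 0, and the cloud has a Pearson correlation of 0.06.

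Airway markers had a median of -0.13, with 19 of 25 lower. Reg3g, an antibacterial lectin, read 493 and 562 in HeJ air and 250 and 286 in HeOuJ air, but 803 and 874 against 1401 and 1313 in ozone. It was lower in HeOuJ in air and higher in ozone, with log2 differences of -0.98 (SE 0.21, adjusted p 0.334 in limma) and 0.70; the interaction had an adjusted p of 0.156 in limma, and a dim second probe set had 0.23 (SE 0.46) in air and -1.65 with the actin ratio as a covariate. Alveolar type 1 markers had a median of -0.18, with 9 of 11 lower, where 48.4% of all probe sets tested were lower. At an unadjusted p under 0.05, 0 of these markers were lower and 1 was higher (9.09%, against 3.12% of all probe sets). Alveolar type 2 markers had a median of 0.02, with 8 of 14 higher. Endothelial markers had a median of 0.15, with 19 of 30 higher, among them Klf2, a factor induced by flow, at 1.11 (SE 0.34), while Sox18, a factor of vessel formation, had -0.56 (SE 0.17). With the actin ratio as a covariate the endothelial median was -0.02 and Klf2 had 0.07.

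The source of cardiac and skeletal muscle RNA in the whole lung samples was not tested. Genes of these muscles had a median of 0.02, with 27 of 51 higher. Myl2, the light chain of ventricular myosin, nevertheless read 191 and 194 in HeJ air and was under the floor on the 2 HeOuJ air arrays and on all ozone arrays. It was thus at least 2.76-fold higher in HeJ air, measured against the floor, with a fitted log2 difference of -1.47 (SE 0.26, adjusted p 0.231 in limma). Only the HeJ air arrays brought Myl2 past the filter, and the floor left no spread in the other groups. Its SE and p are therefore shaped by the floor and lend no support. Tnnc1, the troponin C of heart and slow muscle, ran the other way at 0.45 (SE 0.18). Adipocyte genes had a median of 0.00: the hormone Lep had 1.19 (SE 0.25) by 1 probe set and 0.00 by a dimmer one, or -0.92 with the actin ratio as a covariate. Cidea, a lipid droplet protein, was under the floor on both HeOuJ air arrays and so at least 2.42-fold higher in HeJ air, measured against the floor, with a fitted log2 difference of -1.28 (SE 0.33) that did not pass. Of the DNA replication genes 14 of 38 were higher and 24 lower, with a median of -0.10, and of the mitosis genes 15 of 36 were higher and 21 lower, with a median of -0.03. Chaf1a, a histone chaperone of replication, had -1.04 (SE 0.33), and Smc4, a condensin subunit that compacts mitotic chromosomes, had 0.51 (SE 0.21) in air and -0.84 in ozone. Top2a, the topoisomerase of dividing cells, was under the floor on both HeOuJ air arrays and at least 2.08-fold higher in HeJ air, measured against the floor, with a fitted log2 difference of -1.06 (SE 0.33). None of these 3 passed.

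Genes of endotoxin recognition and NF-kB signalling, the pathway in which the substrains are known to differ, did not stand apart in air. Of 39 tested, 21 were higher and 18 lower, with a median log2 difference of 0.01. None passed, and 1 was higher and 1 lower at an unadjusted p under 0.05. That is 2.56% each, against 3.12% and 2.58% of all probe sets. Cd14, the co-receptor of endotoxin, read 2480 and 2593 in HeJ air and 2573 and 2285 in HeOuJ air, and the substrains overlapped, with a log2 difference of -0.06 (SE 0.16), or 0.08 with the actin ratio as a covariate. Tradd, an adaptor of the TNF receptor, had -0.95 (SE 0.32), and Lcn2, an iron-binding acute phase protein, 0.40 (SE 0.17) by its brighter probe set and -0.20 (SE 0.26) by the other. With the covariate Tradd had -0.28 and the probe sets of Lcn2 -0.31 and 0.63. Of the metal-binding metallothioneins, Mt1 lay at -0.18 (SE 0.15) and Mt2 at -0.15 (SE 0.14). Tlr4 was not analysed here. The acute phase list had a median of 0.01 and the interferon list -0.07.

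Over the 37 lists, 2 held a gene past the adjusted threshold, the chaperones and the immunoglobulins. The medians ran from -0.33 for B cells to 0.27 for the chaperones. The lists of oxidative phosphorylation, proteasome and ribosomal proteins, which serve every cell, had medians of 0.00, 0.04 and -0.06. No list was given a test of its own. Of the 59 genes named here, immunoglobulins aside, 12 had 15 further tested probe sets; 9 of these lay in the same direction in air and 0 passed in limma.

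**Figure D4:**
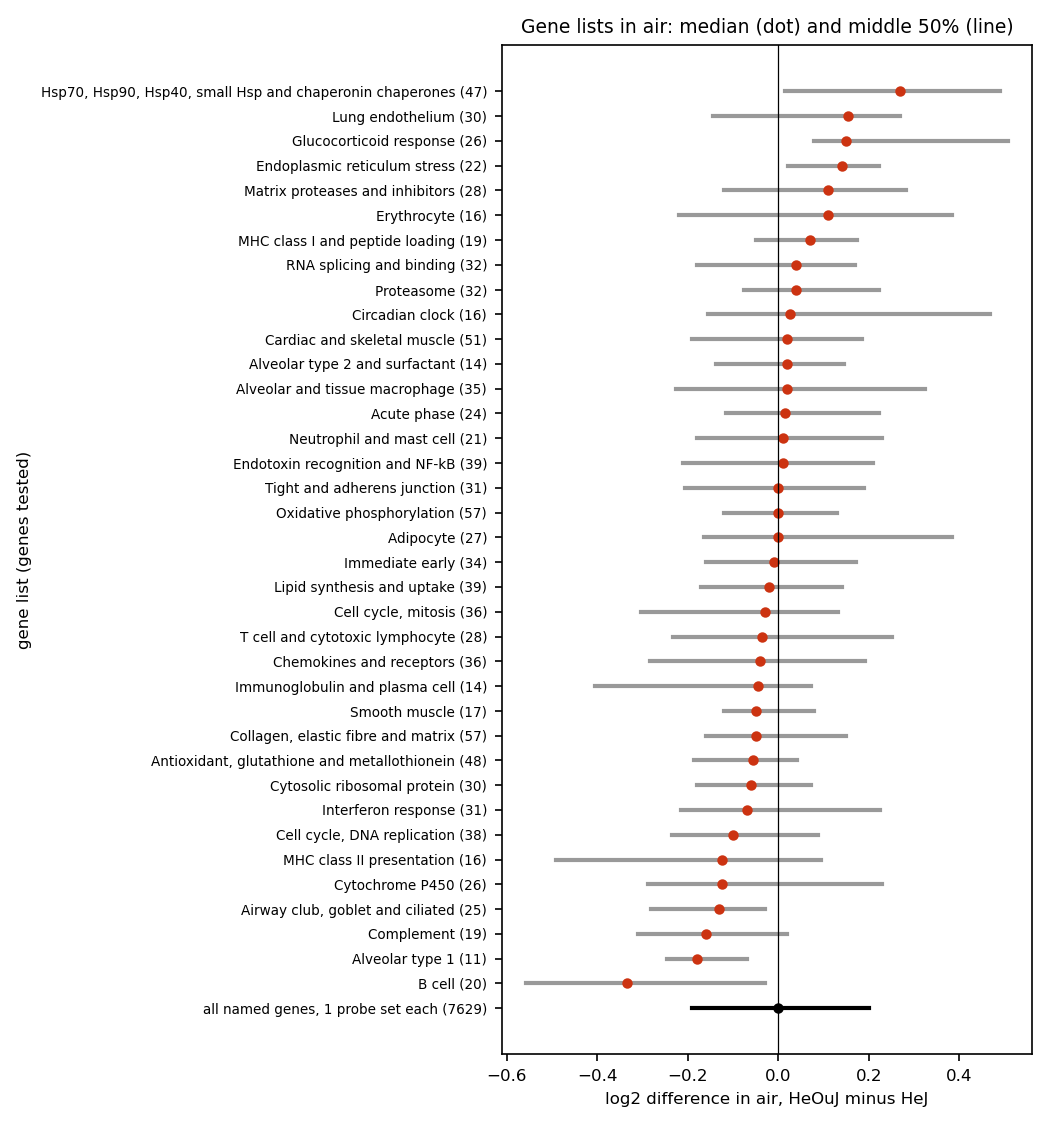
Median log2 difference of HeOuJ minus HeJ in air (dot) and the middle 50% of genes (line) for 37 gene lists, with the number of genes tested in brackets and all named genes in black at the bottom. The chaperone list lies highest at 0.27 and the B cell list lowest at -0.33, and most medians lie close to that of all named genes, 0.00.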

How the data were processed

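Whole lung RNA of 8 samples was read on 8 arrays, 2 for each of 4 groups. The deposited values are 1 linear intensity per probe set and array; the sources used here do not give the authors' scaling software, but the 2% trimmed mean of each array was between 800.39 and 800.41. After 66 controls were set aside, values under the 20th percentile (69.63, or 6.12 on the log2 scale) were raised to this floor, log2 was taken, and the 10953 probe sets above it on at least 2 of 8 arrays were tested; 1469 dimmer ones were not. Gene names came from a platform annotation of 2016, in which 10833 probe sets carry 1 gene name, 396 carry several and 1193 carry none.

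All 8 arrays entered 1 limma model (version 3.58.1, R 4.3.3) of 4 group means with an intensity trend in the variance, with 4 residual and 4.54 prior degrees of freedom. Adjustment was by Benjamini-Hochberg over all probe sets tested. The model was tested on simulated log2 values with independent noise and no floor step. That run cannot speak to results shaped by the floor or by differences between arrays that many probe sets share. Lists used 1 probe set per gene, that of highest mean. Genes could be named if they passed (up to 15 in each direction, arrays not overlapping) or belonged to a set followed throughout. Also eligible were the 5 of smallest p in a direction with fewer than 5 calls. So were up to 4 passing or 2 smallest-p members of a list. Others are marked in the text. Not every eligible gene is described. The followed genes Ly86, Nos2, Saa3, Il6, Cxcl2, Tnf, H2-Ea, Ckm, Tjp1, Klf4 and Hba-a1 were tested, did not pass in air and are left out. Some smallest-p members of lists are left out too. The members and lists were chosen with earlier results of these data known. Alternatives covered normalisation, floor, filter, variance model, array weights, the actin ratio, replicate letters, threshold and leaving out arrays. Promoters were RefSeq sequences of GRCm38.p6. Figures were drawn with matplotlib 3.10.9.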

Additional observations from a re-analysis of the deposited data

How the results depend on the processing

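Of 5 calls (3 higher, 2 lower), quantile normalisation kept 4 and a robust variance prior 4, and median centring gave 8 (4 lower). With dim probe sets kept in, 11 passed (6 higher, 5 lower), 4 of them among the 5 calls. Above the median intensity 8 passed (6 lower), 4 of them shared, and with array weights 9 (5 lower), 5 of them shared. At a threshold of 0.1 there were 9 (5 lower), and without the variance trend 3 (0 lower), of which only 2 were shared. With only the 4 air arrays, without the HeOuJ ozone arrays, or with the actin ratio as a covariate, 0 passed in limma in either direction, with 691, 800 and 423 at an unadjusted p under 0.05; leaving out any 1 array gave 0 to 0 calls, higher and lower alike. The interaction count of 0 became 3 with quantile normalisation. The letters 1a and 1b as a replicate block gave 6 calls, 4 of them lower and 4 of them shared with the 5 calls. The correlation of the letters' deviations was 0.14 between the air groups, and the groups share only a letter.

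The log2 differences of the 5 calls kept their direction in every fit. The air arrays of each call did not overlap, so leaving out 1 array could not turn its sign. The calls were also selected by small p in these arrays, so their steady direction lends no support. For 101566_f_at the differences ran from 1.66 to 3.82, for Hspa1a from 2.10 to 3.55 and for Hspa1b from 2.15 to 2.36. They ran from -1.54 to -1.45 for Ighm 93583_s_at and from -1.57 to -1.41 for Ppp1r21. Signs turned for some genes that had not passed. With the actin ratio as a covariate the log2 difference was -0.01 for Ighm 99420_at, 0.42 for Ighm 93584_at, -0.01 for Hspa1l, 0.08 for Cd14, -0.31 and 0.63 for the brighter and dimmer probe sets of Lcn2, and -0.41 and -1.65 for the dimmer ones of C1qb and Reg3g. With the floor at the 30th percentile the dimmer Reg3g probe set had -0.03. Leaving out 1 array gave -0.37 to 0.12 for Sftpc, -0.15 to 0.02 for Cd14, and for the dimmer probe sets -0.47 to 0.09 for Fabp1, -0.16 to 0.25 for C1qb, -0.46 to 0.06 for Lcn2 and -0.35 to 0.81 for Reg3g. The cause was not tested.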
